A study of Mus musculus with 2 samples.

Results

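Mir139 is a single microRNA (miRNA) gene that lies inside an intron of Pde2a, the gene of a phosphodiesterase. It is 1 of the 2202 miRNA genes in the count tables, found there by its symbol in the GENCODE M21 annotation, and was selected on its high level in these same libraries. Its level and rank are therefore given as a description, with no test. The samples were 2 libraries of 1 group, made from the adrenal gland of female adult 5xFAD/CAST mice aged 8 to 10 months and named biological replicates 1 and 2. 5xFAD mice carry mutant human genes linked to Alzheimer's disease under a neuronal promoter, and CAST mice are an inbred line of wild castaneus origin. Whether each animal carried the transgenes is not stated in the labels. The samples share 1 donor identifier, so differences and SDs show the spread between these samples, which may be technical. The p-values of Fisher's exact test below cover counting error only. With a single group there is no contrast between conditions.

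A miRNA is cut from a hairpin precursor, first by Drosha in the nucleus and then by Dicer in the cytoplasm, and 1 arm of the resulting duplex is usually kept by an Argonaute protein. The kept strand finds messenger RNAs mainly through its seed, bases 2 to 8 from its 5′ end. Hairpins in the introns of protein-coding genes are often transcribed together with the host gene and cut from the host transcript. The enzyme made from Pde2a breaks down cyclic AMP and cyclic GMP and is stimulated by cyclic GMP. It is known from the outer zone of the adrenal cortex, the zona glomerulosa, where in bovine cells it takes part in the lowering of aldosterone production by atrial natriuretic peptide. The product miR-139-5p has been studied mainly in tumours.

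The mature arms and the hairpin are shown because the counts are per hairpin and do not separate the arms. Capitals mark the seed in the arms, and both mature arms in the hairpin. Sequences are those of RefSeq on build GRCm38.p6.
mmu-miR-139-5p: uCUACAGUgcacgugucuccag
mmu-miR-139-3p: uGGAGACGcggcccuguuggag
mmu-mir-139 hairpin: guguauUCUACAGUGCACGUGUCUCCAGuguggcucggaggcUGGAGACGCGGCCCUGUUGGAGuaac
The hairpin is 68 bases long and each arm 22. In the structure of lowest free energy predicted by RNAfold, 19 of the 22 bases of the 5p arm paired with the 3p arm. Of the 7 seed bases, 6 were paired in the 5p arm and 7 in the 3p arm. The predicted energy was -35.6 kcal/mol, or -0.52 per base, against a median of -0.44 per base over the 119 detected intronic miRNA genes described below, which placed Mir139 at position 21 from the most stable.

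No other of the 1738 mature mouse miRNAs in the RefSeq table shared the seed of either arm. A seed held by 1 gene only is common, as 84.5% of the 1398 seeds in that table were. The nearest relative in bases 2 to 7 was miR-6397, shown with those bases in capitals to compare it with miR-139-3p.
mmu-miR-6397: uGGAGACuuucaguggaguga
Its gene, Mir6397, had 0 reads in both libraries. No stretch of 18 bases of either Mir139 arm occurred, on either strand, in any of the 141767 GENCODE M21 transcripts other than that of Mir139, and the hairpin shared no stretch of 20 bases with another annotated miRNA gene. Intronic and intergenic sequence was not searched. Such a stretch, through which reads can map to several places and be left uncounted, was found in 1095 of the 2202 genes.

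Mir139 (ENSMUSG00000065446.1) occupies chr7:101475376-101475443 on the plus strand of mm10. Pde2a (ENSMUSG00000110195.1) spans 101421691 to 101512827 on the same strand, a length of 91.1 kb, and Mir139 starts 53.7 kb after the annotated start of the gene. In each of the 4 protein-coding transcripts of Pde2a it lies in intron 2, which is 29902 bases long. The hairpin begins 23907 bases after the upstream exon and ends 5927 bases before the downstream exon. The predicted protein-coding gene Gm45837 (ENSMUSG00000030653.17), annotated over the same locus from 101410886 to 101512819, holds Mir139 in intron 3 of its only transcript, and that intron is 19829 bases long because of an additional exon. Mir139 overlapped no exon of either gene and no miRNA gene on the opposite strand.

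**Figure D1:**
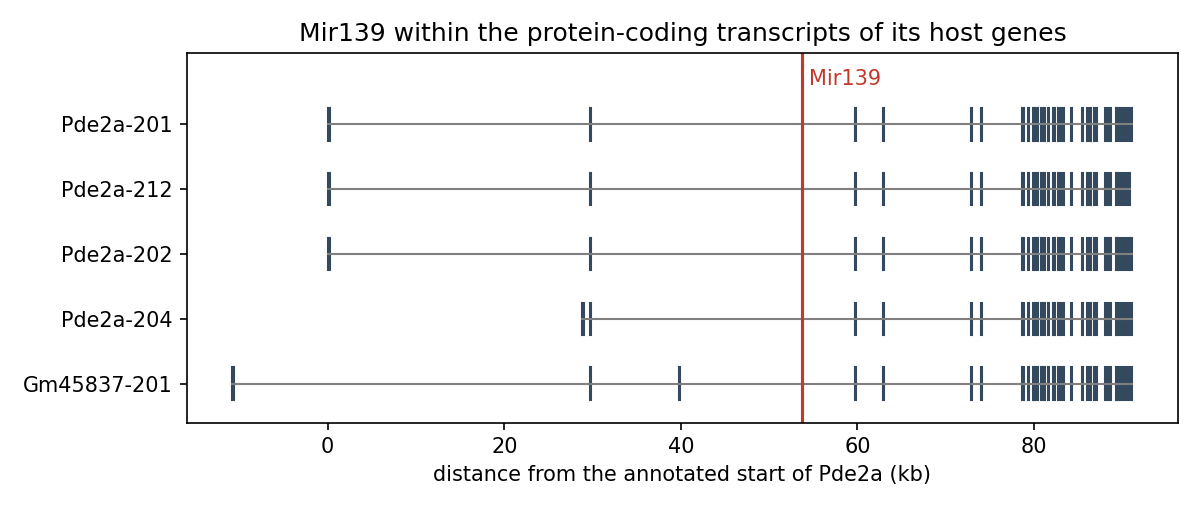
Exons (dark boxes) of the 4 protein-coding transcripts of Pde2a and of Gm45837-201, by distance in kb from the annotated start of Pde2a, with Mir139 as a red line at 53.7 kb; boxes of short exons are widened to stay visible. Mir139 lies in the same long intron of the 4 protein-coding Pde2a transcripts, between an exon 23907 bases upstream and one 5927 bases downstream.

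No other annotated miRNA gene lies within Pde2a. The nearest ones on the chromosome were Mir3102, 593 kb before it on the minus strand with 1432 reads in replicate 1 and 1551 in replicate 2, and Gm22655, 406 kb after it with 0 reads in both. The 0 of Gm22655 sets no limit on expression, since part of its sequence recurs in another miRNA gene.

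Depth was high enough that counting error was small for Mir139. Replicate 1 held 7774567 reads and replicate 2 held 15391360, of which 3635851 and 6924829 were counted on miRNA genes in the column that counts reads of 1 strand. Levels are counts per 1000000 reads of that total (CPM). Multimapping reads, 31.6% and 33.6% of all reads, were assigned to no gene. Among tissue markers, the endocrine cell miRNAs Mir375, Mir7-1 and Mir7b summed to 50599 CPM in replicate 1 and 48309 CPM in replicate 2, all 3 detected. Most of this was Mir375, at 46454 and 43996 CPM, and Mir7-1 has shared sequence. The endothelial Mir126a stood at 56684 and 41532 CPM, and smooth muscle Mir143 and Mir145a summed to 23925 and 21489 CPM. Most of the smooth muscle sum was Mir143, at 22723 and 20631 CPM, while Mir145a had 1202 and 858 CPM. The neuron list, with 6 of 7 members possibly undercounted through shared sequence, summed to 641 and 471 CPM, with 4 members at 0 reads. Only 1 member was detected, Mir137, at 640 and 470 CPM. Leukocyte markers summed to 874 and 620 CPM, and red cell markers to 427 and 175 CPM. Markers of neighbouring or distant organs were low: liver Mir122 had 78.1 and 108 CPM, the kidney and intestine list, 2 of 3 members with shared sequence, 55.8 and 32.8 CPM, and the striated muscle list, 4 of 5 members at 0 reads and 4 of 5 with shared sequence, 2.75 and 0.866 CPM. In bulk tissue a difference in the number of cells of a type cannot be told apart from one in RNA per cell, so which adrenal cells carry Mir139 was not measured.

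Mir139 had 134194 reads in replicate 1 and 268967 reads in replicate 2. That was 36909 CPM in replicate 1 and 38841 CPM in replicate 2, a mean of 37875 ± 1366 CPM (SD, n = 2). Its share of miRNA reads was 3.69% in replicate 1, with an exact 95% interval (Clopper-Pearson) of 3.67 to 3.71%. The share was 3.88% in replicate 2, with an interval of 3.87 to 3.90%. These intervals cover counting error only, since the labels name no molecular identifiers and PCR copies of a molecule may be counted. About 1 in 27.1 miRNA reads of replicate 1 and 1 in 25.7 of replicate 2 came from this hairpin. Of all reads, unmapped and multimapping ones included, Mir139 held 1.73% in replicate 1 and 1.75% in replicate 2.

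The tables do not name their columns, and the column used here was taken as the sense one from its values. The column of the other strand held 0 Mir139 reads in each library, which allows at most 0.00224% of the Mir139 reads in replicate 1 and 0.00112% in replicate 2. The column of both strands gave the same 134194 and 268967 reads. Its level there was 43211 ± 1052 CPM (SD, n = 2), higher only through the smaller total of that column. The both-strand column misses reads over miRNA genes that overlap on opposite strands. Mir126a, which overlaps Mir126b, kept 2 reads there in replicate 1 and 10 in replicate 2, and Mir378a kept 0 in both.

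By mean level Mir139 was number 9 of the 2202 miRNA genes, number 8 in replicate 1 and number 10 in replicate 2. In both libraries 6 genes were above it, namely Mirlet7b, Mirlet7g, Mir10a, Mir126a, Mir375 and Mirlet7i, and 2191 genes were below it. The 4 remaining genes changed sides between the libraries. Mirlet7d, a let-7 family member, stood at 34322 CPM in replicate 1 and 44233 CPM in replicate 2. Mir378a, hosted by the metabolic coactivator gene Ppargc1b, stood at 35470 and 42078 CPM. Mir22, from a noncoding host gene, stood at 31163 and 42371 CPM. Mir23a, of the cluster with Mir27a and Mir24-2, stood at 37608 and 25755 CPM. The ranges of these 4 genes over the libraries contained or crossed that of Mir139, so their order against it is not larger than the spread between libraries. Mirlet7i, at 40016 and 44941 CPM, and Mir23b, at 31167 and 32736 CPM, were above and below it in both libraries without overlap. Counts of Mir378a, Mir23a and Mir23b are uncertain, since 20 bases or more of each recur in another miRNA gene.

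**Figure D2:**
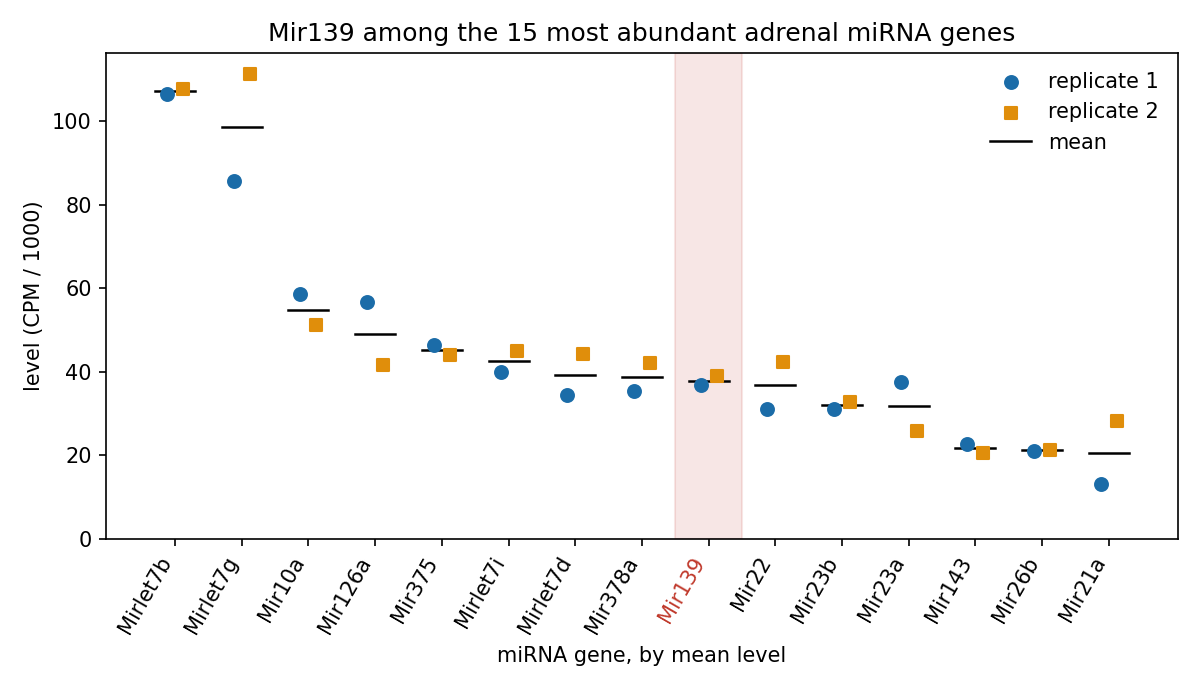
Level of the 15 most abundant miRNA genes, on a linear axis of CPM divided by 1000, with replicate 1 (circles), replicate 2 (squares) and their mean (lines). Mir139, shaded, lies at 36909 and 38841 CPM, and the points of Mirlet7d, Mir378a, Mir22 and Mir23a spread across its values.

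Small RNA reads were assumed to have the length of a mature miRNA, so counts were not divided by the length of the hairpin gene in the ranks above. Read lengths were not examined. Divided by it, Mir139 had a mean of 557 CPM per base and moved to number 6, below Mir378a at 587 and above Mirlet7i at 500 CPM per base.

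The genes most like Mir139 in level over the 2 libraries, by Euclidean distance of log2(CPM + 1), were Mir378a at a distance of 0.13, Mirlet7d at 0.21, Mirlet7i at 0.24, Mir22 at 0.27 and Mir23b at 0.35. With 2 libraries this likeness rests almost wholly on abundance.

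The libraries gave similar levels of Mir139. The ratio of its CPM in replicate 1 over replicate 2 was 0.950 (95% counting interval 0.944 to 0.956), a log2 ratio of -0.074. At this depth even this difference was called by Fisher's exact test, used two-sided and adjusted over 455 genes by Benjamini and Hochberg's method, with an adjusted p of 4.92e-54. Of the 455 genes tested, 52.5% were called by that test, 162 higher and 77 lower in replicate 1. An exact binomial test with TMM normalization called 125 higher and 112 lower. Both tests know no error beyond counting and say nothing on conditions. When the spread between libraries was taken in through a common dispersion, the exact test of edgeR gave Mir139 an adjusted p of 1 and called 3 of the 455 genes (0.659%). That dispersion, a biological coefficient of variation of 32.2%, came from the same 2 libraries that were compared, so this p does not show that the levels were alike. The coefficient of variation of Mir139 itself was 3.61% (n = 2).

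The place of this difference among other genes depended on the scaling. With plain totals its absolute log2 ratio of 0.074 was the sixth smallest of the 23 genes that averaged 10000 CPM or more, whose median was 0.25 and whose range ran from 0.015 to 1.31. There it was at position 41, from the smallest, of the 356 genes with at least 10 reads in each library, whose median was 0.40. The signed median over those 356 genes was 0.19, so that relative to the typical gene Mir139 stood at -0.27. TMM normalization shifted every log2 ratio by -0.14 and put Mir139 at -0.22, position 10 of the 23 and 117 of the 356. DESeq2 size factors put it at -0.24, position 10 of the 23 and 130 of the 356. Under both its absolute log2 ratio was still below the medians of the 23 genes (0.31 and 0.34) and of the 356 genes (0.37 and 0.37).

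**Figure D3:**
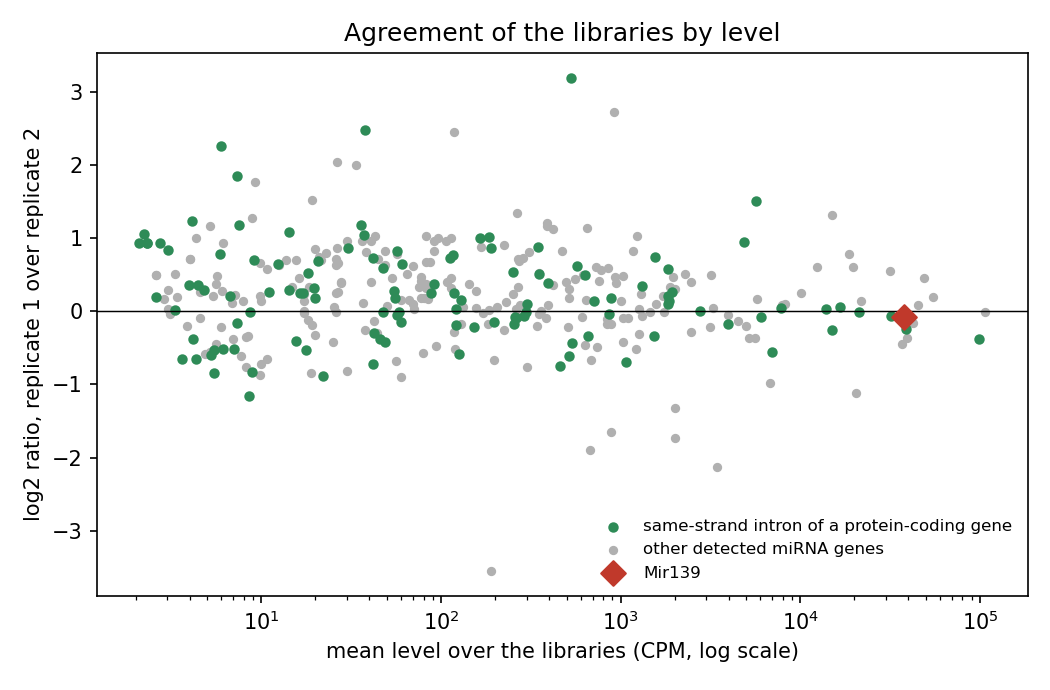
Log2 ratio of replicate 1 over replicate 2 against mean level in CPM for the 356 detected miRNA genes, with genes in same-strand introns of protein-coding genes in green, the others in grey and Mir139 as a red diamond. With plain totals, as drawn, Mir139 lies at -0.074, near the line of equal levels, at the abundant end of the plot.

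The next comparison set Mir139 against the other miRNA genes that lie in introns of protein-coding genes on the same strand and overlap no exon of the host. There were 726 such genes, of which 119 were detected (10 reads or more in each library) and 393 had no read in either. Of these 393, 241 hold 20 bases or more that recur in another miRNA gene, and for these a 0 gives no upper limit. The intronic genes together took 32.5% of miRNA reads in replicate 1 and 35.4% in replicate 2. Their detected members had a median of 59.9 CPM, against 94.6 CPM over all 356 detected genes. In both libraries 8 of the 119 reached 10000 CPM, against 20 of the 356. Detection was 119 of 726 (16.4%) in the group and 356 of 2202 over all miRNA genes. These counts are not read as a trait of the group.

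Within this group Mir139 was number 3 by mean level, number 2 in replicate 1 and number 3 in replicate 2. It supplied 11.3% of the intronic reads in replicate 1 and 11.0% in replicate 2, with exact 95% intervals of 11.3 to 11.4% and 10.9 to 11.0%, or 11.2% ± 0.264 (SD, n = 2). Its mean level was 632 times the median of the detected intronic genes. The 10 most abundant held 82.6% and 87.3% of the intronic reads. The matching share over all miRNA genes was not computed, so this is not read as a trait of the intronic group.

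Mirlet7g, in Wdr82, a gene of a histone methyltransferase complex subunit, led with 85732 CPM in replicate 1 and 111369 CPM in replicate 2, above Mir139 in both. Mir378a followed and was above Mir139 in replicate 2 only. In the both-strand column Mir378a had 0 reads, because a miRNA gene overlaps it on the opposite strand, and there Mir139 was number 2. Mir23b in the peptidase gene 2010111I01Rik came next, at 0.844 times the Mir139 level in replicate 1 and 0.843 times in replicate 2. Mir26b, in the phosphatase gene Ctdsp1, had 21060 CPM in replicate 1 and 21275 CPM in replicate 2, and Mir139 was 1.79 times as abundant by mean. Mir10b, in introns of Hoxd3 and Hoxd4, had 17046 and 16438 CPM. Mirlet7e in Spaca6 had 13651 and 16336 CPM, and Mir652 in Tmem164 had 14056 and 13748 CPM. Mir744 in the kinase gene Map2k4 had 7981 and 7747 CPM, and Mir151 in Ptk2, the gene of focal adhesion kinase, had 5668 and 8304 CPM. Mir139 exceeded each gene from Mir23b to Mir151 in both libraries.

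**Figure D4:**
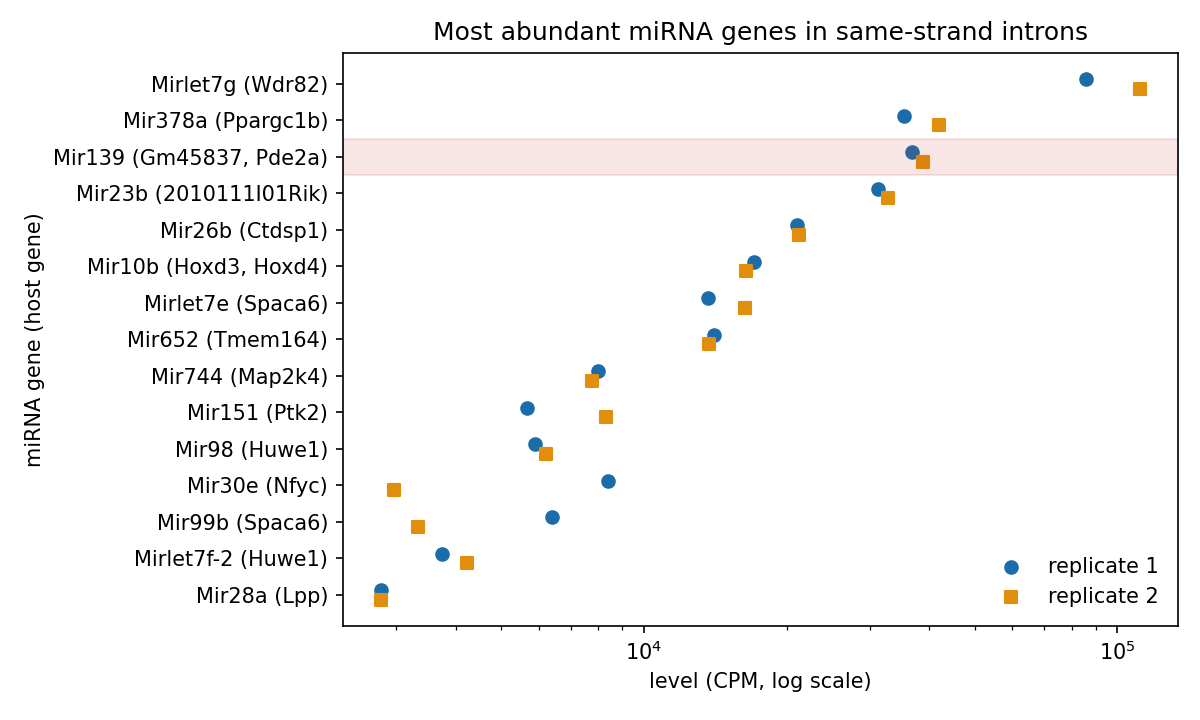
Level in CPM, on a log scale, of the 15 most abundant miRNA genes in same-strand introns, with the host gene in brackets, in replicate 1 (circles) and replicate 2 (squares). Mir139, shaded, is passed by Mirlet7g in both libraries and by Mir378a in replicate 2, and the gene at the bottom, Mir28a, is 13.6 times lower by mean.

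The seeds of 3 other leading intronic miRNAs, printed to show what is shared with Mir139 beyond location, differ from those of both its arms. Capitals mark bases 2 to 8.
mmu-let-7g-5p: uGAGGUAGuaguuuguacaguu
mmu-miR-26b-5p: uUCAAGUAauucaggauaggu
mmu-miR-10b-5p: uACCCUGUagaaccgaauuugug
Each of these 3 belongs to a family with several genes in the mouse. They were picked from the leading intronic genes, and the seeds of the others are not shown. No other mature miRNA searched carries a Mir139 seed. A seed held by a single gene is common, at 84.5% of the 1398 seeds, so this is not read as particular to Mir139.

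In the layout of its locus Mir139 resembled many intronic genes. Of the 119 detected ones, 87 (73.1%) were the only annotated miRNA gene on their strand within the host, and among these Mir139 was again number 3, after Mirlet7g and Mir378a. Only 29 of the 119 had another miRNA gene within 10 kb on the same strand, and Mir139, with 406 kb to the nearest, sat at the median distance. Its intron was long. Taking the shortest annotated intron around each hairpin, Mir139 had 19829 bases against a median of 6799, position 33 of 119 from the longest, in a range from 77 to 707667 bases. That intron is of Gm45837, and the one in the Pde2a transcripts is 29902 bases long. The hairpin was nearer to the downstream exon than to the upstream one, as in 57 of the 119.

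The detected intronic genes had a median absolute log2 ratio between the libraries of 0.39, against 0.40 over all 356 detected genes, and 0.44 against 0.37 with TMM normalization. Mir139 was at position 16 of the 119 from the smallest with plain totals and at position 40 with TMM. Fisher's exact test called 72 of the 119 (60.5%), 47 higher and 25 lower in replicate 1, against 63.5% of the 356 detected genes and 52.5% of all 455 tested, which include genes of few reads.

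Introns of other cyclic nucleotide genes were also examined. Searching host symbols for phosphodiesterases, adenylyl and guanylyl cyclases, cyclic nucleotide dependent kinases, Rapgef exchange factors and cyclic nucleotide gated channels found 4 miRNA genes in same-strand introns, all in phosphodiesterase genes. Mir582, in the cyclic AMP phosphodiesterase gene Pde4d, had 9 reads in replicate 1 and 7 in replicate 2, or 2.48 and 1.01 CPM. Mir1904, also in Pde4d, and Gm44413, in the calcium and calmodulin dependent Pde1c, had 0 reads in both libraries. Of the 4, only Mir139, selected for its level, reached 10 reads in each library, which the whole intronic group did in 16.4% of its 726 genes, so the 3 others are no sign of anything particular to such hosts. The messenger RNAs of the hosts were not measured, so the level of Mir139 was not compared with that of Pde2a.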

How the data were processed

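Small RNA libraries from 2 adrenal gland samples were analysed. The authors deposited raw counts per miRNA gene, with no column names, and their accompanying notes name assembly mm10 and the GENCODE M21 annotation. Aligner, counting program and trimming: not given in the sources used here. From the values, column 2 was read as both strands, column 3 as 1 strand and column 4 as the other. Column 3 was used and column 2 was the check. Entries naming no gene were left out of totals: unmapped (16.1% of the replicate 1 reads and 16.5% of the replicate 2 reads), multimapping (31.6% and 33.6%), on no gene (5.55% and 4.99%) and ambiguous reads (6.12% and 5.24%).

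All 2202 identifiers matched GENCODE M21. Counts were scaled to CPM of the miRNA-gene total, 3635851 and 6924829 reads, at which a count of 0 allows 0.825 and 0.433 CPM (3 counts). The libraries were compared by Fisher's exact test, two-sided, replicate 1 over replicate 2, on each gene whose reads summed to 10 or more, adjusted by Benjamini-Hochberg at 0.05, with a log2 offset of 0.5 counts. With TMM normalization or DESeq2 size factors an exact binomial test took the place of Fisher's. edgeR's exact test used plain totals, with the common dispersion of an intercept-only model fitted after TMM normalization. A trial on simulated data was also made, but its outcome is not reported here, so nothing above rests on it. The genes named are Mir139, the 3 above and 3 below it, the 5 nearest in level, the 10 leading intronic genes, genes in cyclic nucleotide hosts or sharing a seed, chromosome neighbours and tissue markers. The members and lists were chosen with earlier results of these data known, and RefSeq sequences matched 1 of 1 member. Alternatives covered the column, denominator, scaling, filter, host definition, shared sequence, hairpin length and leaving out each replicate. Tools were ViennaRNA 2.7.2 (RNAfold), scipy 1.17.1, pandas 2.3.3, numpy 2.4.6 and matplotlib 3.10.9 in Python 3.11.15, and DESeq2 1.42.0 (size factors) and edgeR 4.0.16 in R 4.3.3.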

Additional observations from a re-analysis of the deposited data

How the results depend on the processing

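Of 35 alternative values for 7 results, 19 stayed within the spread of the libraries or on the same side of the threshold and 0 changed direction. The level of Mir139, 37875 CPM, was 43211 CPM in the both-strand column, 22141 CPM with multimapping reads in the denominator and 17368 CPM with all reads in the denominator, changes set by the totals alone, and ranged from 36909 to 38841 CPM when a replicate was left out. Its rank of 9 among all miRNA genes became 7 in the both-strand column, where Mir126a and Mir378a have few reads or none. The rank of Mir139 was 6 per base of hairpin, and ranged from 8 to 10 with a replicate left out. Its rank of 3 among intronic genes became 2 in the both-strand column and without genes of shared sequence, because Mir378a then has no reads or is left out, and 4 when overlap with an exon of another host transcript was allowed, which admits Mir126a. It ranged from 2 to 3 with a replicate left out. Its share of intronic reads, 11.2%, became 13.6%, 14.7% and 9.13% under the same 3 settings, and ranged from 11.0 to 11.3% with a replicate left out. The log2 ratio of -0.074, called by Fisher's exact test, was not called by edgeR's exact test with common dispersion (log2 ratio -0.074, adjusted p = 1). It takes its dispersion from the compared libraries themselves and could hardly call a ratio this small, so the loss is no sign of dependence on processing. The edgeR test called 3 genes against 239 by Fisher's exact test, with 23 of 455 at an unadjusted p under 0.05. The position of the absolute ratio among the 23 most abundant genes moved from 6 to 10 under TMM and under DESeq2 size factors, alternatives chosen for this result after seeing the data. No paired analysis was possible because there is a single group. Depth was no limit for Mir139, while with 2 libraries the spread itself is poorly known.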
